A study of Mus musculus with 9 samples.

Results

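The genes described here are 10 nuclear genes whose products copy, transcribe or look after the mitochondrial genome, chosen by name from a table of 48820 genes: *Tfam*, *Polrmt*, *Tfb2m*, *Tfb1m*, *Polg*, *Polg2*, *Ssbp1*, *Lrpprc*, *Slirp* and *Nrf1*. All 10 passed the filter of an average level of 1 FPKM or more. RNA of 9 mouse hearts was sequenced, with 3 hearts each from the late foetus (E18.5d), the first day after birth (P1d) and the seventh day after birth (P7d). The mice were C57BL/6J, wild type, untreated and labelled male at every stage, so the stages differ by age alone as far as the labels say. The hearts are labelled as biological replicates. The comparisons asked how the RNA of these genes stood before birth, just after it and a week later, around the time when the heart turns to oxidative metabolism.

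Mitochondria carry a small circular genome of their own, which encodes subunits of the respiratory chain, the ribosomal RNAs and the transfer RNAs of the organelle. Every protein that replicates and transcribes it is encoded in the nucleus and imported. Its transcription is started by the polymerase POLRMT with the factors TFAM and TFB2M, and the long transcripts are then cut, modified and stabilised. Replication is carried out by DNA polymerase gamma (POLG with its accessory subunit POLG2), a helicase and the single-strand binding protein SSBP1. The heart is rich in mitochondria, and loss of several of these factors is known to cause heart or muscle disease.

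Values are FPKM, that is, fragments per kilobase of transcript for every 1e6 fragments mapped. The steps between low FPKM values gave 25.0 to 44.0 times 1e6 fragments per heart, with 286 to 320 bases taken off each transcript's length. Both differed with stage. The depth was 25.0 to 37.0 at E18.5d, 27.0 to 29.0 at P1d and 35.25 to 44.0 at P7d. The bases taken off were 286 to 298, 314 to 320 and 302 to 310 in the same order, and the part of either in the results was not tested. At these depths 1 fragment on a kilobase of the remaining length was worth 0.0227 to 0.04 FPKM. A change is the difference of the stage means of log2(FPKM + 1), which makes changes of weakly expressed genes look smaller, and its p is limma's, adjusted by Benjamini-Hochberg over the 13618 genes tested, with a threshold of 0.05. On the deposited scale the median change over all these genes was -0.17 for P7d against E18.5d, -0.06 for P1d against E18.5d and -0.09 for P7d against P1d. Rescaling the hearts by the median of ratios brought these medians to 0.01, 0.01 and 0.02, so the changes of the 10 genes are also given on that scale. For related genes the changes are on the deposited scale, and those named as higher or lower were also called after median-of-ratios scaling unless the text says otherwise. Cardiomyocyte marker RNA, the sum over 8 genes, was 25800 to 27200 FPKM at E18.5d, 30900 to 34600 at P1d and 32300 to 33100 at P7d, while endothelial markers (6 genes) went from 376 to 406 FPKM at E18.5d up to 505 to 523 at P7d, brown fat markers (4 genes) from 22.2 to 24.1 up to 45.6 to 51.6, and epicardial markers (4 genes) from 46.7 to 56.4 down to 25.0 to 29.1. Erythroid markers (6 genes) had 8420 to 22700 FPKM at E18.5d, 12700 to 24700 at P1d and 8550 to 10400 at P7d. Fibroblast markers (6 genes) had 1310 to 1350, 1030 to 1350 and 1480 to 1540 in the same order. Macrophage markers (6 genes) had 50.4 to 64.5, 69.2 to 101 and 67.0 to 72.8. For smooth muscle and pericytes (6 genes) the sums were 758 to 938, 782 to 872 and 713 to 820. The part of these shifts in the results was not tested. The sum of 5 airway markers ran from 1.51 to 137 FPKM in the E18.5d hearts and from 0.21 to 222 in the P1d hearts (median 0.29), and was at most 0.28 in the P7d hearts, and its part was not tested either. Although all hearts are labelled male, 4 of them (E18.5d hearts 1 and 3 and P7d hearts 2 and 3) had 58.03 to 97.03 FPKM of *Xist*, the RNA of the inactive X chromosome, with 4 Y-linked genes at 0, while the other 5 had at most 0.11 FPKM of *Xist*. No P1d heart was among the 4, so in every comparison with P1d stage and *Xist* status differ together and cannot be fully told apart. In whole-heart RNA, fewer cells of a type and less RNA per cell cannot be told apart.

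The 10 genes spanned a wide range of levels. *Lrpprc* led at every stage, with 66.5 FPKM at E18.5d, followed by 55.4 at P1d and 60.2 at P7d, and was clear of all other members in every heart. *Polg2* was last at every stage, with 1.95, 2.73 and 1.59 FPKM. At E18.5d, *Tfam* (29.5 FPKM) and *Ssbp1* (29.4 FPKM) came next and overlapped, as did *Polg* (18.4), *Nrf1* (16.3) and *Polrmt* (16.2) after them, then *Tfb2m* (10.4) and *Slirp* (10.1), which overlapped too, and *Tfb1m* (7.23). By the mean over all hearts *Lrpprc* stood at percentile 91.2 of the genes tested, *Ssbp1* at 78.1, *Tfam* at 77.6 and *Polg2* at 14.5. At P1d, *Polg* (23.9 FPKM) had moved up among *Ssbp1* (26.4 FPKM) and *Tfam* (23.0 FPKM), each overlapping its neighbour in the order. At P7d, *Slirp* (5.76 FPKM) and *Tfb1m* (4.67 FPKM) were the only neighbours that overlapped apart from *Ssbp1* with *Polg* and *Polg* with *Polrmt*. These levels rest on the transcript length the authors used for each gene, which is not given in the sources used here.

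**Figure D1:**
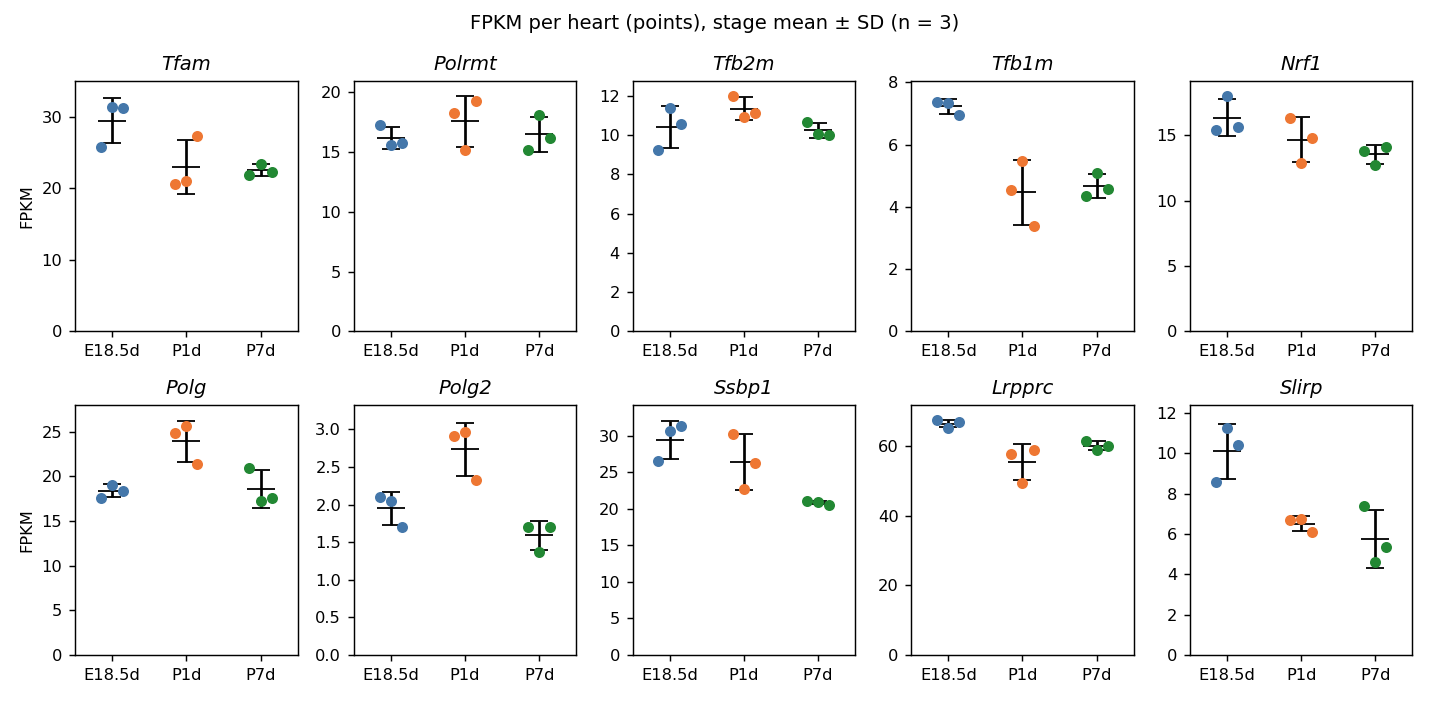
FPKM of the 10 genes in each of the 9 hearts, by stage, with the stage mean and SD (n = 3), each panel on its own axis from 0. *Tfb1m*, *Slirp* and *Lrpprc* lie lower in all P1d and P7d hearts than in the E18.5d hearts, and *Polg* and *Polg2* are highest at P1d.

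Counted together, 5 of the 10 genes were lower at P7d relative to E18.5d on the deposited scale and 0 were higher, where 36.9% of all genes tested were lower and 12.5% higher. Between P1d and E18.5d, 4 were lower and 2 higher, beside 27.6% and 18.4% of all genes. Between P7d and P1d, 3 were lower and 0 higher, beside 28.6% and 15.5% of all genes. The medians of the 10 changes were -0.22, -0.15 and -0.12 in the same order, near those of all genes. On the median-of-ratios scale 2 were lower and 0 higher at P7d relative to E18.5d (18.7% and 23.3% of all genes), 2 lower and 2 higher at P1d relative to E18.5d (22.2% and 23.7%), and 1 lower and 1 higher at P7d than at P1d (18.2% and 23.5%). Both scales gave lower levels of *Tfb1m* and *Slirp* at P1d and at P7d than before birth, higher levels of *Polg* and *Polg2* at P1d, and a lower level of *Polg2* at P7d than at P1d. No member changed by 1 or more on the log2 scale in any comparison. With only the 5 hearts low in *Xist*, which leaves 1 heart at E18.5d and 1 at P7d, no member was called in any comparison.

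**Figure D2:**
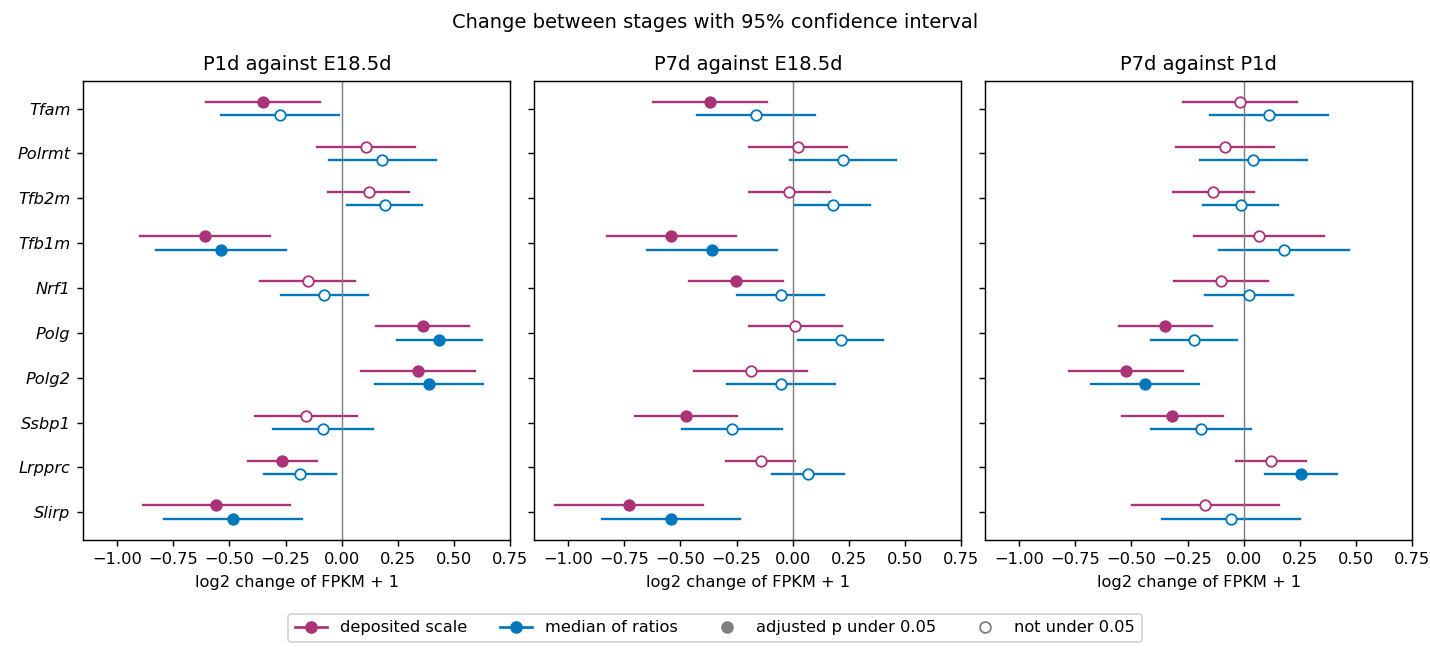
Change of log2(FPKM + 1) of each gene in the 3 comparisons, on the deposited scale and after median-of-ratios scaling, with the 95% confidence interval. Filled points have an adjusted p under 0.05, as *Tfb1m* and *Slirp* have on both scales against E18.5d, while the points of *Tfb2m* and *Polrmt* are open throughout.

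The promoters of the 10 genes were searched for motifs of factors known to act on mitochondrial genes. The recognition sequence of the ETS factor GABPA (also called nuclear respiratory factor 2), which is known to regulate many genes of the respiratory chain, was looked for as CCGGAAG on both strands of the RefSeq promoter windows, which run from 250 bases before to 50 bases after the start (GRCm38.p6). It was present for 6 of the 10 genes, all of which have a window, against 8.86% of all 32851 windows and 17.2% of the 12569 windows of genes tested here. The matches are shown because they include both polymerase gamma subunits, which were called higher at P1d on both scales, and *Slirp*, which has 3. The limits of those calls are given below, and a part of GABPA in them was not tested. Capitals mark the match, or its reverse complement where the match is on the other strand, and each stretch reads in the direction of the gene:
*Tfam* (chr10:71238075-71238101, minus strand): ctgccgcggaCCGGAAGtccgggcttc
*Polrmt* (chr10:79746608-79746634, minus strand): cctaagagcgCTTCCGGcagtcgcaga
*Polg* (chr7:79466295-79466321, minus strand): aggacctcacCCGGAAGtccctctgca
*Polg2* (chr11:106779550-106779576, minus strand): gggtgacgctCTTCCGGgggcgtggtc
*Ssbp1* (chr6:40471411-40471437, plus strand): gctccgtgcgCCGGAAGcgagccgctg
*Slirp* (chr12:87443740-87443895, plus strand): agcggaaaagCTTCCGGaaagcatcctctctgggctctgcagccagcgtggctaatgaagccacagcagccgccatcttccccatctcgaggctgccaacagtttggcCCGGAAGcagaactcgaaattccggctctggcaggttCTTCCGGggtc

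In 5 of these genes the single match begins 29 to 47 bases before the start: at -47 for *Tfam* and *Ssbp1*, -43 for *Polrmt*, -38 for *Polg* and -29 for *Polg2*. In *Slirp* the matches begin at -146, -48 and -11. The stretches of *Polrmt*, *Polg2* and *Slirp* lie outside the gene in GENCODE M21, and those of *Tfam*, *Polg* and *Ssbp1* lie before the RefSeq start but within the bounds that GENCODE gives the gene. Of the 6 genes with a match, *Polg* and *Polg2* were called higher at P1d and *Slirp* lower after birth on both scales. On the deposited scale only, *Tfam* was lower at P1d and P7d than at E18.5d, and *Ssbp1* at P7d. *Polrmt* was called in no comparison. The letters GCGCANGCG, recognised by the factor NRF1, were found for *Polrmt* (2 matches, at -5 and 1) and *Tfb2m* (at 12), that is for 2 of 10 genes against 6.25% of all windows and 13.0% of those of tested genes. GGGCGG, bound by SP1, was found for 7 of 10 genes against 35.7% and 62.3%, and AAGATGGC, bound by YY1, for *Slirp* alone (at -85) against 2.75% and 4.35%. Positions count bases from the start, with negative values before it. The motifs were searched separately, no match in these genes overlapped one to another motif, and a match shows the letters only.

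TFAM packages mitochondrial DNA into nucleoids and bends the promoters so that transcription can begin. *Tfam* (chr10:71225464-71238280 on the minus strand of GRCm38, protein coding) had 25.8, 31.44 and 31.2 FPKM in the E18.5d hearts, 20.63, 21.05 and 27.35 at P1d and 21.88, 23.43 and 22.34 at P7d. The P7d hearts all lay below the E18.5d hearts, and the third P1d heart lay above the lowest E18.5d heart. Its mean went from 29.5 ± 3.19 FPKM at E18.5d to 23.0 ± 3.76 on P1d and 22.6 ± 0.80 on P7d (SD, n = 3). On the deposited scale this was a fall at P1d (change -0.35 ± 0.11 SE, adjusted p = 0.0294) and at P7d (-0.37 ± 0.11, adjusted p = 0.0224). After median-of-ratios scaling neither passed the threshold (-0.27, adjusted p = 0.082, and -0.16, adjusted p = 0.29), and P7d against P1d was not called on either scale (-0.02 and 0.11). On the deposited scale, the P7d call was also lost without E18.5d heart 2 (adjusted p = 0.0784) or 3 (0.0736) or without P7d heart 1 (0.0646) or 3 (0.058), and the P1d call without E18.5d heart 2 (0.0969) or 3 (0.0938) or without P1d heart 1 (0.098) or 2 (0.088). The P1d call was also lost with no filter (0.0634), with only the stages compared (0.0641) and with a covariate for *Xist* (0.0787).

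POLRMT is the single-subunit RNA polymerase of mitochondria, which also makes the primers for replication. *Polrmt* (chr10:79736123-79746581, minus strand) had 17.28, 15.57 and 15.73 FPKM at E18.5d, then 18.28, 15.19 and 19.29 at P1d and 15.22, 18.09 and 16.19 at P7d. All 3 stages overlapped, with means of 16.2 ± 0.94, 17.6 ± 2.14 and 16.5 ± 1.46 FPKM. No comparison was called on either scale. The change at P7d against E18.5d was 0.02 with a 95% interval of -0.19 to 0.24, or 0.22 with an interval of -0.01 to 0.46 after median-of-ratios scaling (adjusted p = 0.859 and 0.116). At P1d it was 0.11 (-0.11 to 0.33) or 0.18 (-0.06 to 0.42), and at P7d against P1d -0.08 or 0.04.

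TFB2M melts the promoter so that POLRMT can start, and TFB1M, its relative, methylates the small ribosomal RNA of the mitochondrial ribosome. *Tfb2m* (chr1:179528055-179546267, minus strand) had 9.26, 11.39 and 10.55 FPKM at E18.5d, followed by 12.01, 10.91 and 11.14 at P1d and 10.66, 10.06 and 10 at P7d, so that the E18.5d hearts spanned all P7d hearts. It was not called in any comparison on either scale, with changes of 0.12 (95% interval -0.06 to 0.30) at P1d and -0.02 (-0.20 to 0.16) at P7d against E18.5d, or 0.19 (0.02 to 0.36, adjusted p = 0.0618) and 0.18 (0.01 to 0.34, adjusted p = 0.0834) after median-of-ratios scaling. From P1d to P7d its change was -0.14 or -0.01. *Tfb1m* (chr17:3519256-3557781, minus strand) had 7.38, 7.34 and 6.96 FPKM at E18.5d, then 4.54, 5.46 and 3.39 at P1d and 4.34, 5.1 and 4.56 at P7d. Every heart after birth lay below every heart before it. The mean fell by 38.2% at P1d and fell by 35.4% at P7d, with changes of -0.61 ± 0.13 (adjusted p = 0.0040) and -0.54 ± 0.13 (adjusted p = 0.0069). After median-of-ratios scaling the P1d change was -0.54 (adjusted p = 0.0077) and the P7d change -0.36 (adjusted p = 0.0488), and P7d against P1d was not called on either scale (0.07 and 0.18).

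The later call of *Tfb1m* was close to the threshold on that scale and was lost when E18.5d heart 1 (adjusted p = 0.117), 2 (0.102) or 3 (0.0915), P1d heart 1 (0.0625) or P7d heart 1 (0.142) or 3 (0.116) was left out. The P1d call held without any single heart on both scales, with adjusted p up to 0.0269. The ratio of *Tfb1m* to *Tfb2m* within a heart does not depend on the scale of its column. It was 0.797, 0.644 and 0.66 at E18.5d, followed by 0.378, 0.5 and 0.304 at P1d and 0.407, 0.507 and 0.456 at P7d. The ratios after birth were all below those before it, 0.554-fold at P1d and 0.652-fold at P7d, with an exact two-sided permutation p = 0.1 each, the smallest that 3 hearts against 3 allow (adjusted over 15 ratio comparisons, 0.188). An exon of *Tfb1m* overlaps one of *Tiam2* on the opposite strand, and since the strand used in counting is not given, reads of the pair cannot be told apart there.

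NRF1 is a transcription factor known to bind promoters of *Tfam*, *Tfb1m*, *Tfb2m* and many respiratory chain genes. *Nrf1* (chr6:30047988-30153458, plus strand) had 15.43, 17.98 and 15.64 FPKM at E18.5d, then 16.3, 12.88 and 14.78 at P1d and 13.81, 12.71 and 14.11 at P7d. The P7d hearts were below all E18.5d hearts, while the P1d hearts overlapped both. The change at P7d was -0.25 ± 0.09 and passed the threshold narrowly (adjusted p = 0.0478). It was -0.05 after median-of-ratios scaling (adjusted p = 0.649), and the deposited-scale call held without 2 of the 9 single hearts only, P1d hearts 1 and 2, with adjusted p from 0.0239 to 0.167 over the 9 leave-outs and the highest without E18.5d heart 2. No call was made at P1d against E18.5d (-0.15, adjusted p = 0.214) or at P7d against P1d (-0.10, adjusted p = 0.405), nor after rescaling (-0.08, adjusted p = 0.496, and 0.02, adjusted p = 0.851).

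POLG is the catalytic subunit of the mitochondrial DNA polymerase, with proofreading. *Polg* (chr7:79446231-79466362, minus strand) had 17.62, 19.08 and 18.41 FPKM at E18.5d, followed by 24.83, 25.62 and 21.34 at P1d and 20.99, 17.2 and 17.57 at P7d. The P1d hearts were above all others, and the E18.5d and P7d hearts overlapped. The mean was 30.3% higher at P1d relative to E18.5d, a change of 0.36 ± 0.09 (adjusted p = 0.0106), or 0.43 after median-of-ratios scaling (adjusted p = 0.0027), and this held without any single heart on both scales. From P1d to P7d it fell by 22.3% (-0.35 ± 0.09, adjusted p = 0.0131), which median-of-ratios scaling left short of the threshold (-0.22, adjusted p = 0.0607), as did leaving out P7d heart 2 (adjusted p = 0.0519). P7d against E18.5d was not called on either scale (0.01 and 0.21). An exon of *Polg* overlaps one of *Fanci* on the opposite strand.

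POLG2 clamps POLG to its template. *Polg2* (chr11:106768253-106779537, minus strand) was the lowest of the 10 genes, at 2.1, 2.05 and 1.7 FPKM at E18.5d, then 2.91, 2.96 and 2.33 at P1d and 1.7, 1.37 and 1.7 at P7d. As for *Polg*, all P1d hearts were above all others. The mean was 40.2% higher at P1d relative to E18.5d (change 0.34 ± 0.11, adjusted p = 0.0339, and 0.39, adjusted p = 0.0156, after median-of-ratios scaling). It then fell by 41.8% to P7d (-0.53 ± 0.11, adjusted p = 0.0048, and -0.44, adjusted p = 0.0095), and this call held without any single heart on both scales. The rise at P1d was lost on the deposited scale without E18.5d heart 2 (adjusted p = 0.0615) or 3 (0.111) or P1d heart 1 (0.0978) or 2 (0.0942), and on the other scale without E18.5d heart 3 (0.0571) or P1d heart 1 (0.0508). P7d against E18.5d was not called (-0.19 and -0.05 on the 2 scales). An exon of *Polg2* overlaps one of *Milr1* on the opposite strand.

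Over the 9 hearts *Polg* and *Polg2* had a Pearson correlation of log2(FPKM + 1) of 0.858, given as a description, since the hearts of a stage share that stage. The ratio of *Polg* to *Polg2* was 8.39, 9.31 and 10.8 at E18.5d, followed by 8.53, 8.66 and 9.16 at P1d and 12.3, 12.6 and 10.3 at P7d. The P7d ratios were above all P1d ratios, 1.33-fold on average (exact permutation p = 0.1, adjusted 0.188), and overlapped the E18.5d ratios. With a pseudocount of 1 in both terms the log2 difference between P7d and P1d was 0.18 in place of 0.41. Scaling the columns to an equal sum, under which the median change of all genes at P1d was -0.21, took the rises of *Polg* (0.19, adjusted p = 0.198) and *Polg2* (0.22, adjusted p = 0.207) below the threshold, and the rise of *Polg2* also missed it with no filter (adjusted p = 0.0703) or with only the stages compared in the fit (0.0534). When a covariate for *Xist* was added, the rises of *Polg* (0.25, adjusted p = 0.0918) and *Polg2* (0.28, adjusted p = 0.166) at P1d did not pass the threshold, while the fall of *Polg2* from P1d to P7d did (-0.47, adjusted p = 0.0407).

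SSBP1 coats the single strand laid bare at the replication fork. *Ssbp1* (chr6:40471352-40484700, plus strand) had 26.48, 30.59 and 31.27 FPKM at E18.5d, then 30.22, 22.65 and 26.3 at P1d and 21.03, 20.91 and 20.58 at P7d. The P7d hearts were close together and below all others, and the P1d hearts overlapped the E18.5d hearts. The mean fell by 29.2% from E18.5d to P7d (-0.48 ± 0.10, adjusted p = 0.0038), a call that held without any single heart on the deposited scale. After median-of-ratios scaling the change was -0.27 with an adjusted p of 0.0523. The fall from P1d to P7d on the deposited scale (-0.32, adjusted p = 0.0290) was not called on the other scale (-0.19, adjusted p = 0.155), and was lost without P1d heart 1 (0.0912) or 3 (0.0585) or without P7d heart 1 (0.0633), 2 (0.0691) or 3 (0.0758). P1d against E18.5d was not called (-0.16 and -0.08 on the 2 scales). The ratio of *Tfam*, whose product also coats mitochondrial DNA, to *Ssbp1* was 0.974, 1.03 and 0.998 at E18.5d, with 0.683, 0.929 and 1.04 at P1d and 1.04, 1.12 and 1.09 at P7d. The P7d ratios were above all others, narrowly so for the lowest of them and the highest P1d ratio, 1.08-fold against E18.5d and 1.24-fold against P1d (exact permutation p = 0.1 each, adjusted 0.188). The ratio of *Tfam* to *Polrmt* was 1.49, 2.02 and 1.98 at E18.5d, and lower in every heart at P1d (1.13, 1.39 and 1.42) and at P7d (1.44, 1.3 and 1.38), 0.718-fold and 0.755-fold with an exact permutation p = 0.1 each (adjusted 0.188).

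LRPPRC and SLIRP form a complex that binds mitochondrial mRNAs and protects them from decay. *Lrpprc* (chr17:84705247-84790789, minus strand) had 67.41, 65.32 and 66.84 FPKM at E18.5d, followed by 57.64, 49.51 and 59.0 at P1d and 61.51, 58.85 and 60.17 at P7d. The E18.5d hearts were above all others, and the P1d and P7d hearts overlapped. The fall at P1d was -0.26 ± 0.07 on the deposited scale (adjusted p = 0.0114) and -0.19 after median-of-ratios scaling (adjusted p = 0.0562), and with a covariate for *Xist* it narrowly missed the threshold (adjusted p = 0.0527). P7d against E18.5d was not called (-0.14, adjusted p = 0.112), and its direction turned on the other scale (0.07, adjusted p = 0.481). From P1d to P7d *Lrpprc* rose after median-of-ratios scaling (0.25, adjusted p = 0.0184) and was not called as deposited (0.12, adjusted p = 0.179). The rise was lost without P7d heart 1 (adjusted p = 0.051).

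*Slirp* (chr12:87443896-87452206, plus strand) changed the most of the 10 genes between E18.5d and P7d. It had 8.6, 11.27 and 10.44 FPKM at E18.5d, then 6.71, 6.74 and 6.09 at P1d and 7.37, 4.59 and 5.33 at P7d. As for *Tfb1m*, every heart after birth lay below every heart before it. The mean fell by 35.5% at P1d (-0.56 ± 0.15, adjusted p = 0.0117) and fell by 43.0% at P7d (-0.73 ± 0.15, adjusted p = 0.0028). After median-of-ratios scaling the changes were -0.48 (adjusted p = 0.0168) and -0.54 (adjusted p = 0.0109). The P7d call held without any single heart on both scales, and the P1d call was lost on the median-of-ratios scale without E18.5d heart 2 (adjusted p = 0.0616) or 3 (0.0548). P7d against P1d was not called on either scale (-0.17 and -0.06). Exons of *Slirp* overlap exons of *Alkbh1* and *Snw1* on the opposite strand. With a covariate for *Xist* the fall at P1d was -0.80 (adjusted p = 0.0021). The covariate cannot move the change at P7d, since E18.5d and P7d each have 2 hearts high in *Xist*.

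The ratio of *Lrpprc* to *Slirp* was 7.84, 5.8 and 6.4 at E18.5d, followed by 8.59, 7.35 and 9.69 at P1d and 8.35, 12.8 and 11.3 at P7d. All P7d ratios were above all E18.5d ratios, 1.61-fold on average (exact permutation p = 0.1, adjusted 0.188), and the P1d ratios overlapped both. Over the 5 pairs of genes and 3 comparisons no ratio had an adjusted p below 0.188, as the design cannot give a smaller p than 0.1.

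**Figure D3:**
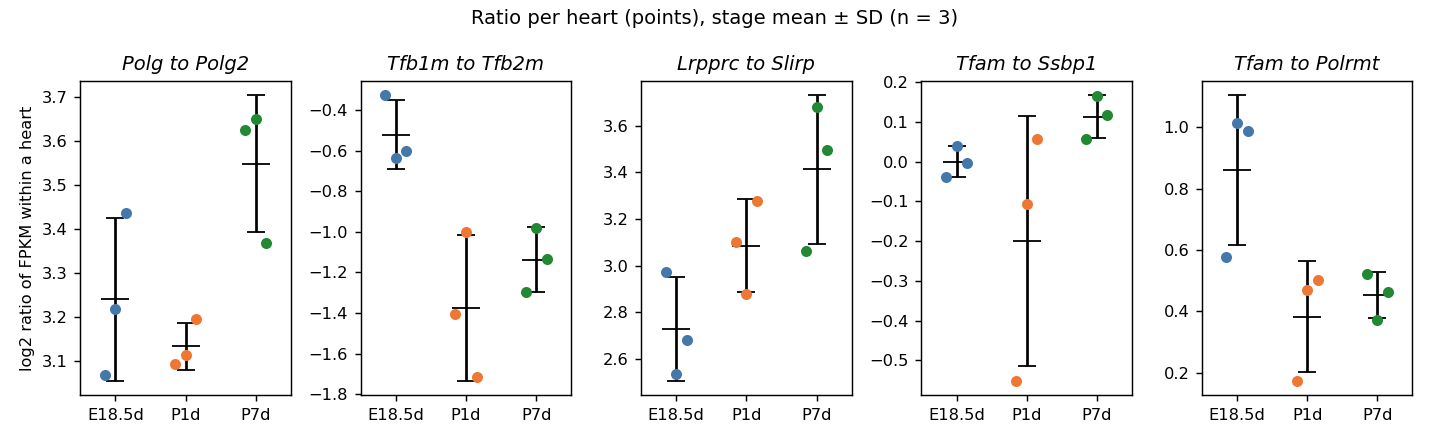
Log2 ratio of the FPKM of 2 genes within each heart, by stage, with the stage mean and SD (n = 3). The *Tfb1m* to *Tfb2m* and *Tfam* to *Polrmt* ratios are lower in every heart after birth, and the *Lrpprc* to *Slirp* ratio is higher in every P7d heart than in any E18.5d heart.

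Of 13 other genes of mitochondrial DNA replication and maintenance, 8 were lower and 0 higher at P7d relative to E18.5d, beside 36.9% lower and 12.5% higher of all genes tested. At P1d 7 were lower and 0 higher relative to E18.5d, beside 27.6% and 18.4%, and from P1d to P7d 2 were lower and 4 higher, beside 28.6% and 15.5%. The list medians were -0.34, -0.37 and 0.03. After median-of-ratios scaling 3 were lower and 2 higher at P7d (18.7% and 23.3% of all genes), 5 lower and 0 higher at P1d (22.2% and 23.7%), and 0 lower and 5 higher from P1d to P7d (18.2% and 23.5%), so the P7d count was near the background on that scale. *Twnk*, the replicative helicase, went from 12.7 ± 0.45 FPKM at E18.5d to 7.88 ± 0.58 at P7d (-0.63, adjusted p = 0.0016), and *Mgme1*, a nuclease that trims replication ends, from 8.23 ± 0.45 to 4.95 ± 0.31 (-0.63, adjusted p = 0.000626). *Dna2* (-1.36), *Fen1* (-1.11) and *Exog* (-0.98), nucleases of which the first pair also serve the nucleus, fell the most at P1d, and *Dna2* went from 5.35 FPKM at E18.5d to 1.48 on P1d and 3.46 on P7d. Beside them stood 15 genes of nuclear DNA replication, of which all 15 were lower at P1d (median -1.55) and 12 at P7d (median -0.64) than at E18.5d, and 13 were higher at P7d than at P1d, or 14, 9 and 14 after median-of-ratios scaling. *Prim1*, the primase, fell from 19.9 to 5.11 FPKM at P1d (-1.79, adjusted p = 9e-06), with *Mcm2* (-1.88) and *Mcm5* (-1.76) of the licensing helicase. At P7d *Prim1* (-0.93), *Mcm6* (-0.83) and *Lig1* (-0.78) had fallen the most. *Polg* and *Polg2* took the opposite course, being highest at P1d.

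Among 10 tested genes for mitochondrial deoxynucleotides, 3 were lower and 0 higher at P7d relative to E18.5d, near the 36.9% and 12.5% of all genes, and 1 was lower and 1 higher at P1d (27.6% and 18.4% of all genes). After median-of-ratios scaling 2 were lower and 3 higher at P7d (18.7% and 23.3% of all genes), and 1 lower and 3 higher at P1d (22.2% and 23.7%). *Rrm1*, the large subunit of ribonucleotide reductase, which also serves nuclear replication, went from 73.1 FPKM at E18.5d to 24.2 on P1d and 37.7 on P7d (-1.57 and -0.94). *Tk2*, the mitochondrial thymidine kinase, was higher at P1d, at 5.2 ± 0.94 against 3.19 ± 0.54 FPKM (0.56, adjusted p = 0.0123). *Slc25a36*, a pyrimidine nucleotide carrier, and *Suclg2*, a subunit of succinyl-CoA ligase, were lower at P7d (-0.42 and -0.33), the latter on the deposited scale only (-0.12, adjusted p = 0.153, after rescaling).

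Of 5 tested elongation and termination factors, 2 were lower and 0 higher at P7d relative to E18.5d and 0 lower and 1 higher at P1d, or 1 lower at P7d and 2 higher at P1d after median-of-ratios scaling. These are few genes, and 36.9% of all genes were lower at P7d and 18.4% higher at P1d, or 18.7% and 23.7% after rescaling. *Mterf3*, a repressor of mitochondrial transcription, fell from 18.3 ± 0.39 to 13.1 ± 0.89 FPKM at P7d (-0.45, adjusted p = 0.0026). *Mterf4*, which acts with a ribosomal RNA methyltransferase, rose from 12.5 to 15.2 FPKM at P1d (0.26, adjusted p = 0.0192) and stood at 9.35 FPKM at P7d (-0.38 against E18.5d, adjusted p = 0.0028, and -0.19, adjusted p = 0.062, after rescaling). Among 19 genes of RNA processing and stability, 12 were lower and 1 higher at P7d, and 6 lower and 3 higher at P1d, against 4 lower and 3 higher, and 6 lower and 5 higher, after median-of-ratios scaling. As deposited, 36.9% of all genes fell and 12.5% rose by P7d, and 27.6% and 18.4% by P1d. After rescaling these shares were 18.7% and 23.3% at P7d, near those of the list, and 22.2% and 23.7% at P1d. *Grsf1*, which binds RNA in mitochondrial granules, rose from 66.0 ± 1.46 FPKM at E18.5d to 87.3 ± 2.44 on P1d and 80.4 ± 3.99 on P7d (0.40 and 0.28, adjusted p = 0.000368 and 0.0024). *Pnpt1*, the polynucleotide phosphorylase, fell from 13.1 to 8.3 FPKM at P1d and 8.46 at P7d (-0.60 and -0.57), and *Fastkd5*, needed to mature transcripts without flanking transfer RNAs, from 8.6 to 5.99 and 6.11 FPKM (-0.46 and -0.43). *Rexo2*, an oligoribonuclease, fell at P1d (-0.69), where *Prorp*, the nuclease of mitochondrial RNase P (0.50), and *Ptcd1* (0.37) rose. *Prorp* was lower at P7d than at E18.5d, at 4.08 against 5.57 FPKM (-0.37, adjusted p = 0.0024), and *Ptcd2* fell at P7d on the deposited scale (-0.46, and -0.25, adjusted p = 0.0732, after rescaling).

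Upstream of these genes, 2 of 13 regulators were higher and 3 lower at P7d relative to E18.5d, and 2 were higher and 4 lower at P1d, the same counts as after median-of-ratios scaling. These shares were near or below those of all genes as deposited (12.5% higher and 36.9% lower at P7d, 18.4% and 27.6% at P1d), and after rescaling the shares of all genes were 23.3% and 18.7%, and 23.7% and 22.2%. *Ppargc1a*, the coactivator PGC-1 alpha, which is known to drive *Tfam* expression through NRF1 and GABPA, had 30.0 ± 0.81 FPKM at E18.5d, then 49.1 ± 3.72 at P1d and 30.0 ± 2.53 at P7d (0.69 at P1d, adjusted p = 0.000108). Its level was highest at P1d, as were those of *Polg* and *Polg2* and unlike that of *Tfam*, and a link between these genes was not tested. *Esrra* was slightly higher at both later stages (0.18 and 0.20) and *Ppargc1b* at P7d (0.39, adjusted p = 0.0250). *Creb1* (-0.82 at P1d and -0.46 at P7d), *Yy1* (-0.38 at P7d), *Myc* (-1.16 at P7d), *Gabpb2* (-0.58 at P1d) and *Pprc1* (-0.92 at P1d) were lower.

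Several RNAs made from the mitochondrial genome rose after birth. The 13 mitochondrially encoded mRNAs summed to 24400 to 28800 FPKM at E18.5d, 36600 to 45900 at P1d and 44300 to 47800 at P7d. The E18.5d hearts did not overlap the rest. *mt-Co1* made up the largest part of this sum at each stage. At P7d 6 of the 13 were higher than at E18.5d, 0 lower and 7 not called (median change 0.82). Of all genes, 12.5% were higher. The 6 include *mt-Nd4l*, whose hearts overlapped between the stages, with 98.1 ± 106 FPKM at E18.5d and 230 ± 92.7 at P7d (adjusted p = 0.0466). At P1d 5 were higher and 1 lower (median 0.45), where 18.4% of all genes were higher. After median-of-ratios scaling 9 were higher at P7d (median 1.03, 23.3% of all genes) and 6 higher and 1 lower at P1d (median 0.53, 23.7%). *mt-Co1*, a cytochrome oxidase subunit, went from 11600 ± 637 to 20600 ± 1410 and 25500 ± 737 FPKM (0.82 at P1d and 1.13 at P7d), *mt-Nd4* rose by 1.31 and *mt-Nd5* by 0.99 at P7d, and *mt-Nd1* (0.54) and *mt-Atp8* (0.59) rose at P1d. *mt-Nd6*, the mRNA encoded on the other strand from the rest, was the one that fell at P1d, from 418 ± 58.5 to 253 ± 65.6 FPKM (-0.74, adjusted p = 0.0057), and was at 500 ± 39.3 at P7d. *mt-Atp8* overlaps *mt-Atp6*, yet their means at E18.5d were 7140 and 147 FPKM. How reads were shared between them and the length used for each are not given, so their levels and changes are uncertain. That holds for the rise of *mt-Atp8* at P1d and for its part in the sum of the 13 mRNAs (10800 FPKM at P1d and 9590 at P7d). With the strand of counting not given, *mt-Nd6* cannot be told apart from transcripts of the opposite strand. The ribosomal RNAs *mt-Rnr1* and *mt-Rnr2* rose as well, by 0.55 each at P1d, where the *mt-Rnr1* values overlapped those of E18.5d, and by 1.06 and 1.04 at P7d.

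For 15 general mitochondrial proteins of import, structure and metabolism, 10 were lower and 1 higher at P7d, and 4 lower and 2 higher at P1d, with medians of -0.31 and -0.06. Of all genes tested, 36.9% were lower at P7d and 27.6% at P1d, and 12.5% and 18.4% were higher. *Cs*, citrate synthase, often used to gauge mitochondrial content, rose from 350 to 422 FPKM at P7d (0.27, adjusted p = 0.0039). *Hspd1* (-0.59) and *Hspa9* (-0.44), matrix chaperones, and *Timm23* (-0.37) fell at P7d, the last on the deposited scale only (-0.16, adjusted p = 0.129, after rescaling). At P1d *Cycs* (-0.73), *Hspd1* (-0.67) and *Tomm40* (-0.43) fell, and *Tomm20* (0.21) and *Phb2* (0.20) rose. On the deposited scale *Tomm20* was below its E18.5d level at P7d, at 16.2 against 20.7 FPKM (-0.34, adjusted p = 0.0017), and was not called after rescaling (-0.13, adjusted p = 0.113). After median-of-ratios scaling 2 of the 15 were lower and 3 higher at P7d (18.7% and 23.3% of all genes), and 4 lower and 2 higher at P1d (22.2% and 23.7%).

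**Figure D4:**
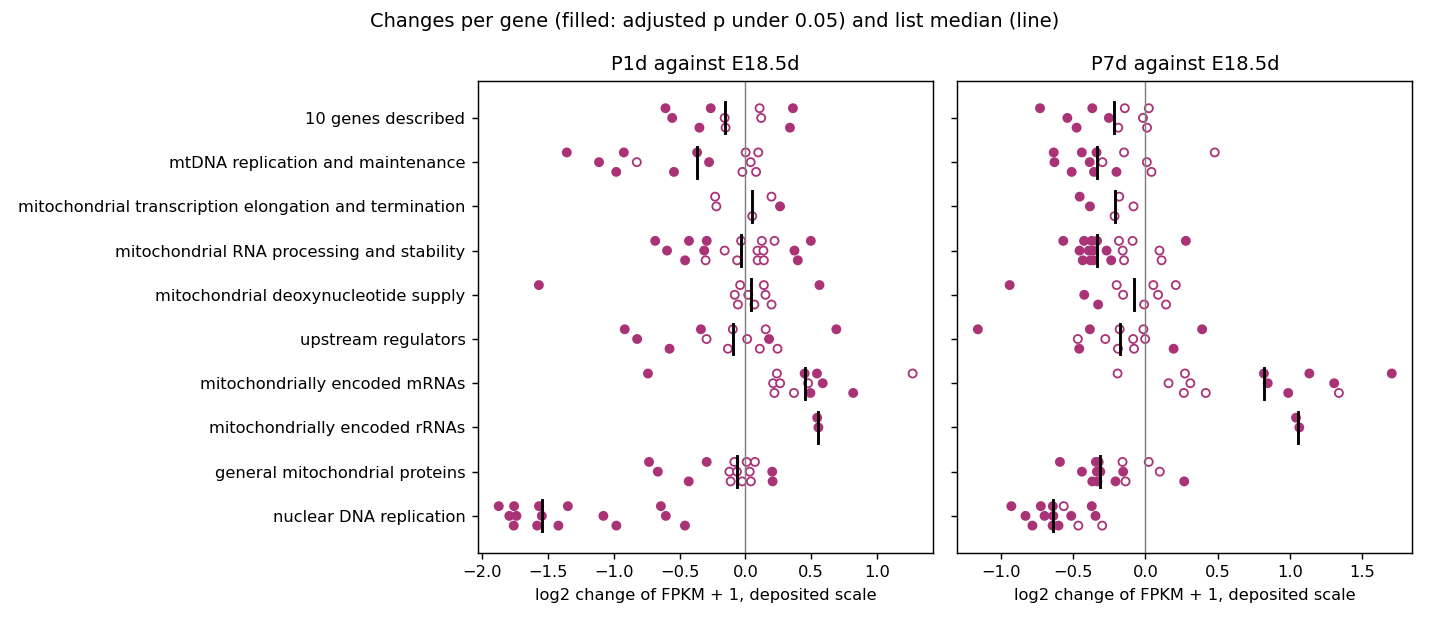
Change of log2(FPKM + 1) on the deposited scale at P1d and at P7d against E18.5d, for the 10 genes and for each list of related genes, with 1 point per gene, filled where the adjusted p is under 0.05, and a line at the list median. The mitochondrially encoded RNAs lie mostly above 0 and the nuclear replication genes below it, and the medians of the 10 genes are -0.15 at P1d and -0.22 at P7d.

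Over the 9 hearts, the genes whose log2(FPKM + 1) followed each member most closely had Pearson correlations of 0.869 to 0.989, a range that partly reflects the search over 13618 genes in hearts that share stages. For *Polg2* they were *Pi4k2a* (0.989), *Syf2* and *Cebpd*, for *Polg* *Vrk3* (0.986), *Crot* and *Kat5*, for *Tfb1m* *Ethe1* (0.987), *Samd1* and *Plod3*, and for *Slirp* *Sec61b* (0.985), *Gm9874* and *Derl2*. For *Nrf1* they were *Paxbp1* (0.987), *Eif3j1* and *Rrnad1*, for *Lrpprc* *Edem3* (0.982), *Nlk* and *Gm6478*, for *Tfam* *Ccdc66* (0.971), *Srp54c* and *Ice2*, and for *Ssbp1* *Gm43859* (0.987), *Gm37139* and *Gm43863*. The closest to *Tfb2m* were *Gm43958* (0.941), *Pnpla6* and *1110032A03Rik*, and to *Polrmt* *P3h4* (0.885), *Fam124a* and *Asb2*. Among the members themselves, *Ssbp1* and *Nrf1* (0.86) and *Polg* and *Polg2* (0.858) were the closest pairs.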

How the data were processed

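The authors deposited FPKM values of 48820 genes, rounded to 2 decimals, with 1 column for each of 9 hearts, 3 per stage. The submitters' processing notes name STAR and GRCm38 (mm10); the counting tool and annotation are not given in the sources used here. The libraries were made from total RNA with a NEBNext Ultra RNA kit. Gene names and coordinates come from GENCODE M21 on GRCm38, which holds 48058 of the identifiers, 40606 in the same version.

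The 13618 genes averaging 1 FPKM or more were fitted as log2(FPKM + 1), with a pseudocount of 1, with limma 3.58.1 in R 4.3.3 (trend, all hearts in 1 fit, no covariate). Ratios within a heart were compared by exact two-sided permutation (scipy 1.17.1), with Benjamini-Hochberg adjustment over 15 tests. The fit was tested on simulated data in which 200 of 13618 genes changed by 1 on the log2 scale at P7d. It called 188 of them and 17 unchanged genes for P7d against E18.5d, and 186 and 6 for P7d against P1d. Changes below 1, such as those of the members, were not simulated. Depth was estimated from steps in the low FPKM values of genes with 1 transcript, of which 88.9% to 92.0% came out whole within 0.15 of a fragment, against 30.0% by chance. Samples were grouped by the labelled stage.

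The members and the lists of related genes were chosen with earlier results of these data known. Named are all members and, per list, up to 3 largest changes in each direction at P7d and at P1d against E18.5d if past the threshold and with no overlap between the hearts. The correlations are over 3 genes per member. The genes *Mterf1b* and *Tymp* were below the filter. Alternatives were a pseudocount of 0.1, no filter or an average of 5 FPKM, columns scaled to an equal sum or by median of ratios, quantile normalization, no trend, only the stages compared, a replicate block, *Xist* above 1 FPKM as a covariate or a reason to leave a heart out, a log2 change of 1 or more, and leave-outs of each heart. Scaling to protein-coding nuclear genes and leaving out each heart under median of ratios were added after seeing the data. RefSeq promoter windows were searched in Python 3.11.15 and figures drawn with matplotlib 3.10.9.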

Additional observations from a re-analysis of the deposited data

How the results depend on the processing

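Of 5 members lower at P7d than at E18.5d, 2 were called with median of ratios, 3 with quantile normalization, 2 with scaling to protein-coding nuclear genes, and 3 to 6 over leaving out each heart in turn. Of 2 higher at P1d than at E18.5d, 1 was called with no filter, with a mean of at least 5 FPKM (where *Polg2* was not tested) and with only the stages compared, 0 with an equal sum and with the *Xist* covariate, and 1 to 2 without single hearts. Of 4 lower at P1d, 2 were called with median of ratios and with the *Xist* covariate. From P1d to P7d, 1 member was called higher in place of 0 with median of ratios, quantile normalization and protein-coding scaling (*Lrpprc*), and 1 lower in place of 3 with an equal sum, median of ratios, the *Xist* covariate and protein-coding scaling, and 1 to 3 without single hearts. Requiring a log2 change of 1 or more, and using only the hearts low in *Xist*, left 0 in each. The cause was not tested.

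A pseudocount of 0.1 changed none of the 30 member results. The labels do not say whether replicate numbers pair hearts across stages. The deviations of same-numbered hearts correlated from -0.05 to 0.11, and those of differently numbered hearts from -0.18 to 0.13. With 3 hearts a stage, these values cannot show whether a number stands for a shared litter or batch. With a replicate block, 4 members were lower at P7d and 4 at P1d than at E18.5d, 2 higher at P1d, and 3 lower at P7d than at P1d. *Nrf1* at P7d was the call lost (adjusted p = 0.0729).

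No called change turned its sign. These uncalled ones did. At P7d against E18.5d, *Tfb2m* was 0.18 with median of ratios, 0.14 with quantile normalization, 0.14 with protein-coding scaling and -0.090 to 0.046 without single hearts. *Polg* was -0.03 with an equal sum and -0.075 to 0.062 without single hearts. *Polrmt* was -0.018 with an equal sum, -0.031 in hearts low in *Xist* and -0.041 to 0.077 without single hearts. *Lrpprc* was 0.067 with median of ratios and 0.023 with protein-coding scaling. At P1d against E18.5d, *Tfb2m* was -0.040 with an equal sum and -0.0053 in hearts low in *Xist*, and *Polrmt* -0.056 with an equal sum. At P7d against P1d, the values with an equal sum, median of ratios, quantile normalization and protein-coding scaling were 0.11, 0.11, 0.10 and 0.13 for *Tfam*, 0.038, 0.043, 0.028 and 0.062 for *Polrmt*, and 0.019, 0.023, 0.0046 and 0.042 for *Nrf1*. *Tfam* was 0.01 with the *Xist* covariate and -0.087 to 0.11 without single hearts. *Tfb1m* was -0.015 in hearts low in *Xist* and -0.081 to 0.20 without single hearts, *Tfb2m* 0.0050 with protein-coding scaling, and *Slirp* 0.069 with the *Xist* covariate and 0.16 in hearts low in *Xist*. On the median-of-ratios scale, leaving out single hearts gave -0.11 to 0.0003 for *Polg2* at P7d and -0.18 to 0.02 for *Ssbp1* and -0.15 to 0.0077 for *Nrf1* at P1d, all against E18.5d, and at P7d against P1d -0.040 to 0.019 for *Tfb2m*, -0.054 to 0.12 for *Polrmt*, -0.21 to 0.055 for *Slirp* and -0.061 to 0.093 for *Nrf1*. The log2 ratio of *Polg* to *Polg2* at P7d against P1d was 0.18 with a pseudocount of 1.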
